A study of Rattus norvegicus with 12 samples.

Results

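The 6 genes followed here belong to the aryl hydrocarbon receptor pathway and were measured in the lumbar spinal cord of rats after spinal cord injury (SCI). They were Cyp1a1, Cyp1b1, Ahr, Ahrr, Tiparp and Nqo1, taken by symbol, and all 6 were found among the 23526 genes of the table, each with 1 entry. The set was selected on the counts of Cyp1a1 in these same data, which were 0 in sham and higher at day 3. For these 6 genes, day 3 against sham is therefore given as a description, with no test. The same holds for Cyp1a1 in every comparison with sham or day 3. Other genes of the pathway were tested at day 3 against sham. RNA of whole tissue from segments L3 to L5 was sequenced in 12 libraries. Sham rats at day 0, and rats 3, 7 and 14 days after SCI, gave 3 libraries per group. Strain, sex, age, the level and kind of the injury, and whether the libraries of a group came from separate animals are not stated in the labels. P-values therefore measure the spread between these libraries, which may be technical. Sham stands at day 0 alone, so later days have no sham group of their own age.

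The aryl hydrocarbon receptor, encoded by Ahr, is a transcription factor that waits in the cytoplasm with chaperones until it binds a planar aromatic ligand, such as a combustion product, a plant indole or a metabolite of tryptophan. It then enters the nucleus, pairs with the partner protein Arnt, and binds xenobiotic response elements, whose core is GCGTG, near its target genes. Cyp1a1 and Cyp1b1 are cytochrome P450 enzymes that oxidise such ligands, and Cyp1a1 is the most widely used readout of the receptor. Ahrr is a repressor that competes for Arnt, and Tiparp is an ADP-ribosyltransferase that lowers receptor activity; both are themselves targets of the receptor. Nqo1, a quinone reductase, is shared with the oxidative stress factor NRF2, encoded by Nfe2l2. In the cord, Cyp1b1 is known mainly from cells of the vessel wall and the meninges.

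The 250 bases before the RefSeq start site (build GRCr8) of 5 of the 6 genes were searched for the receptor's core, GCGTG on either strand. Ahrr held 3 matches, Cyp1b1 2, Tiparp 1, Nqo1 1 and Ahr 0. Of 33465 rat windows of this length, 25.9% held at least 1 match, 8.12% at least 2 and 2.58% at least 3. The 3 windows below belong to the repressor, the ADP-ribosyltransferase and the P450 enzyme of the set and are shown because all 3 genes are textbook receptor targets. Capitals mark GCGTG or its reverse complement CACGC. The windows are chr1:30821969-30822218 on the plus strand for Ahrr, chr2:152063519-152063768 on the plus strand for Tiparp and chr6:21094315-21094564 on the plus strand for Cyp1b1.
Ahrr: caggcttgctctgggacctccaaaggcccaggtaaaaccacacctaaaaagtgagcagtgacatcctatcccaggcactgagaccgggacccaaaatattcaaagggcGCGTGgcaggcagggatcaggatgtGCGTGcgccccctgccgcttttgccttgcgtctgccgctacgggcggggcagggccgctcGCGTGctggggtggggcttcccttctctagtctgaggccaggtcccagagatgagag
Tiparp: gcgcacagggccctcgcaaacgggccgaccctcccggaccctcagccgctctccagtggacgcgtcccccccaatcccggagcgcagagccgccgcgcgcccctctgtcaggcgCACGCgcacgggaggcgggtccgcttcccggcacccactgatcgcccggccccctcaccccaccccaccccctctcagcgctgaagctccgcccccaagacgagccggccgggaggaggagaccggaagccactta
Cyp1b1: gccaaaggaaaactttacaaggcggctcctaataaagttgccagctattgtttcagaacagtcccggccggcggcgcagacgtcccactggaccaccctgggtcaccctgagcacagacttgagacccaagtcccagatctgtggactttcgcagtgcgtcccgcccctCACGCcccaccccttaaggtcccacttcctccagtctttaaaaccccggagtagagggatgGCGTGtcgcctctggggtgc
The longer form TNGCGTG, which contains the core, occurred once on either strand in the Ahrr window and once in the Cyp1b1 window, against 4.09% of all windows with a match. The antioxidant response element TGACNNNGC, bound by NRF2, had 0 matches in the Nqo1 window, against 10.1% of all windows with a match. A match describes letters only, and no binding was measured. Elements outside these windows were not searched, so 0 matches does not mean that a gene lacks the element.

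The shallowest library held 63 and the deepest 79.1 (in units of 1e+06 counts). Libraries differed in the levels of cell type markers within groups. The neuronal chloride cotransporter Slc12a5 ran from 457 to 609 CPM in sham (CPM, counts per 1e+06 after TMM scaling). At day 3 it stood at 383 CPM in replicate 2 but at 32.0 and 31.5 CPM in replicates 1 and 3. All 5 neuron markers summed to 142 and 133 CPM in those replicates and to 598 to 2080 CPM in the other 10 libraries. The 4 markers of Schwann cells, the myelinating cells of nerve roots, were lowest in SCI day 7 replicate 2, where they summed to 687 CPM, and highest in SCI day 3 replicate 3, at 8440 CPM, and sham replicate 2, at 6180 CPM. In whole tissue, fewer cells of a type and less RNA per cell cannot be told apart.

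Cyp1a1 (ENSRNOG00000019500, chromosome 8 in the table) was read in none of the sham libraries and in each of the 9 SCI libraries. SCI day 3 replicates 1, 2 and 3 held 217, 234 and 780 counts, or 2.64, 3.03 and 10.9 CPM. At day 7 the replicates held 35, 23 and 90 counts, or 0.483, 0.304 and 1.27 CPM. By day 14 they held 11, 8 and 16 counts, or 0.147, 0.113 and 0.246 CPM. The 4 groups did not overlap at any step, with day 3 above day 7, day 7 above day 14 and day 14 above sham. Taken singly, 19.0% of all genes lay higher at day 3 than in sham without overlap, 7.69% lower at day 7 than at day 3 and 9.43% lower at day 14 than at day 3. Day 14 lay above sham without overlap in 9.37% of all genes and below day 7 in 4.83%. All 9 SCI libraries lay above all sham libraries in 3.86%. Nothing is read from the shares that involve sham or day 3, whose values belonged to the choice of the gene. A count of 0 in the 3 sham libraries together allows up to 0.0157 CPM at the floor of 3 counts over the group. Against that floor, Cyp1a1 was at least 339-fold higher at day 3, at least 43.0-fold higher at day 7 and at least 10.6-fold higher at day 14. Without replicate 3 of the day in question the bounds were 180, 24.9 and 8.29. With 1 sham library left out, which raises the floor, they were as low as 224, 28.3 and 6.95. These bounds cover counting error in sham only, not that of the SCI counts or the spread between libraries.

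The step from day 7 to day 14 took no part in the choice of the gene. There Cyp1a1 had a log2 fold change of -2.02 ± 0.765 (SE), from 0.686 ± 0.515 to 0.168 ± 0.0692 CPM (SD, n = 3 each). The step did not pass the test over all genes (quasi-likelihood test of edgeR, p adjusted by the Benjamini-Hochberg method = 1; unadjusted p = 0.0284). Without SCI day 7 replicate 3, the highest library of that day, the log2 fold change was -1.22. In that comparison 0% of genes passed, 3.67% had an unadjusted p under 0.05, and 4.83% were lower at day 14 with no overlap, as Cyp1a1 was. The neighbouring gene Cyp1a2, the closest relative of Cyp1a1 and chiefly a liver enzyme, had 0 CPM in 10 libraries and 0.049 and 0.053 CPM in the others, replicate 1 of day 3 and replicate 2 of day 7. How reads that match both genes were counted is not known here.

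Levels of cell type markers differed between the day 3 libraries in which Cyp1a1 was read at 2.64, 3.03 and 10.9 CPM. Neuron markers summed to 142, 1460 and 133 CPM in these replicates 1, 2 and 3. Endothelial markers (5 of 6 matched, none at 0 in any group) summed to 642, 286 and 597 CPM in SCI day 3 replicates 1, 2 and 3, against 159 to 201 CPM in sham. The endothelial adhesion protein Pecam1 alone gave 192, 37.1 and 132 CPM. Fibroblast and meningeal markers (6 of 6 matched) summed to 2000, 3280 and 5950 CPM in these replicates, in the same order as Cyp1a1, and Schwann cell markers (4 of 4 matched) to 2630, 4820 and 8440 CPM. At day 7, Cyp1a1 measured 0.483, 0.304 and 1.27 CPM in replicates 1, 2 and 3. Fibroblast and meningeal markers summed to 706, 2370 and 2250 CPM there, in another order. Schwann cell markers summed to 1470, 687 and 3180 CPM, in the same order. At day 14, Cyp1a1 measured 0.147, 0.113 and 0.246 CPM. Fibroblast and meningeal markers summed to 2760, 2930 and 3090 CPM and Schwann cell markers to 4040, 4000 and 2460 CPM, both in another order. In sham, where Cyp1a1 had 0 counts, the fibroblast and meningeal markers ran from 777 to 3270 CPM and the Schwann cell markers from 1480 to 6180 CPM. Liver markers (5 of 5 matched) summed to at most 5.50 CPM in every group, and Ttr among them was at 0 in sham. The part of any of these cells in the level of Cyp1a1 was not tested.

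**Figure D1:**
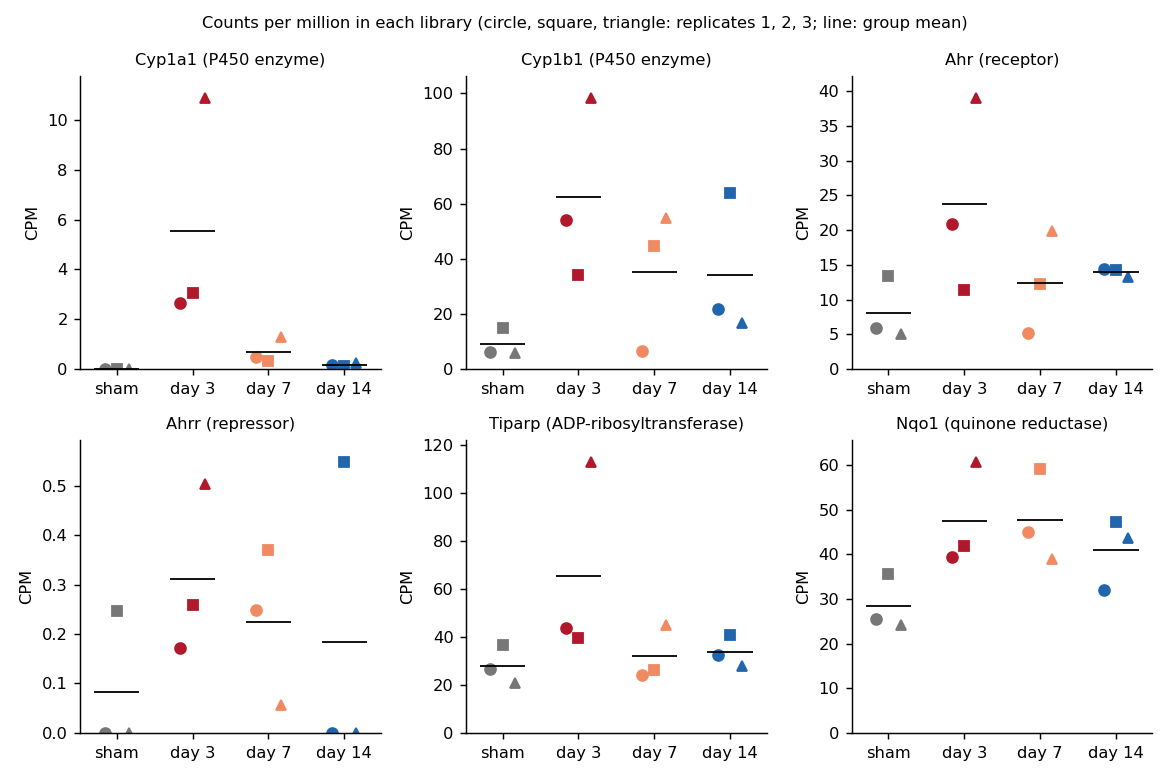
CPM of each gene (vertical axes, each starting at 0) in the 12 libraries by group, with circles, squares and triangles for replicates 1, 2 and 3 and a line at the group mean. Cyp1a1 lies at 0 in sham, and its mean steps down from 5.53 CPM at day 3 to 0.168 CPM at day 14. All genes but Ahrr peak in SCI day 3 replicate 3, and Ahr is narrowest at day 14, from 13.3 to 14.4 CPM.

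Cyp1b1 (ENSRNOG00000040287, chromosome 6), the other P450 enzyme, measured 6.27, 15.0 and 5.61 CPM in sham replicates 1, 2 and 3. At day 3 it measured 54.2, 34.0 and 98.5 CPM, at day 7 6.49, 44.5 and 54.8 CPM, and at day 14 21.8, 63.8 and 16.7 CPM. Day 3 and day 14 lay above all sham libraries, and day 7 did so in replicates 2 and 3 only, since replicate 1 fell inside the sham range. Its mean was 8.94 ± 5.22 CPM in sham and 62.2 ± 33.0, 35.2 ± 25.4 and 34.1 ± 25.8 CPM on the 3 days in turn (SD, n = 3 each). At day 3, where 19.0% of all genes lay above sham without overlap, its log2 fold change against sham was 2.80, given without a test. At day 7 it was 1.98 ± 0.787 (SE; edgeR adjusted p = 0.443, unadjusted p = 0.0298) and at day 14 it was 1.93 ± 0.786 (SE; edgeR adjusted p = 0.638, unadjusted p = 0.0328). Without SCI day 14 replicate 2 the latter was 1.10, and without sham replicate 2 the log2 fold changes were 3.39, 2.57 and 2.52 at days 3, 7 and 14. Day 14 lay above sham without overlap, as 9.37% of all genes tested did. From day 7 to day 14 the log2 fold change was -0.05 ± 0.757 (edgeR adjusted p = 1), an SE too wide to show that both days were alike, and -0.91 without SCI day 14 replicate 2. From day 3 to day 14 the mean of Cyp1a1 went from 5.53 to 0.168 CPM and that of Cyp1b1 from 62.2 to 34.1 CPM; the difference between the 2 genes was not tested.

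The receptor gene Ahr (ENSRNOG00000004342, chromosome 6) measured 5.91, 13.4 and 5.03 CPM in sham and 20.9, 11.4 and 39.1 CPM at day 3. Later libraries gave 5.18, 12.2 and 19.8 CPM (day 7) and 14.4, 14.3 and 13.3 CPM (day 14). Day 3 overlapped sham, because SCI day 3 replicate 2 lay below sham replicate 2. The log2 fold change was 1.55 at day 3, given without a test, 0.61 ± 0.550 at day 7 and 0.79 ± 0.551 at day 14 (SE; edgeR adjusted p = 0.768 and 0.856). Without replicate 3 of the day in question, the values at days 3 and 7 were 0.99 and 0.1. Without sham replicate 2 the values were 2.12, 1.18 and 1.36 at days 3, 7 and 14. Ahr was the most even of the 6 genes at day 14, where the highest library was 1.09 times the lowest, against 3.43 times at day 3 and 3.82 times at day 7.

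Of the 2 feedback genes, Tiparp (ENSRNOG00000011238, chromosome 2) measured 26.5, 36.7 and 20.7 CPM in sham and 43.7, 39.5 and 113 CPM at day 3. It then measured 24.2, 26.3 and 45.0 CPM at day 7 and 32.5, 40.9 and 28.0 CPM at day 14. All 3 day 3 libraries lay above sham, as 19.0% of all genes did, and both later days overlapped sham. The log2 fold change against sham was 1.22 at day 3, given without a test, 0.19 ± 0.408 at day 7 and 0.27 ± 0.409 at day 14 (SE; edgeR adjusted p = 0.907 and 0.906). Against day 3 it was -1.04 ± 0.412 at day 7 and -0.95 ± 0.411 at day 14 (SE; edgeR adjusted p = 0.323 and 0.268; unadjusted p = 0.0298 and 0.0427). Without SCI day 3 replicate 3, by far the highest library, these values were 0.57 at day 3 against sham, and -0.39 and -0.30 at days 7 and 14 against day 3. At those 2 steps 14.8% and 17.9% of all genes had an unadjusted p under 0.05.

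Ahrr (ENSRNOG00000014721, chromosome 1), the repressor, was close to the limit of detection. It had 16 counts in sham replicate 2 and 0 in the other sham libraries, and 14, 20 and 36 counts at day 3. At day 7 it had 18, 28 and 4 counts, and at day 14 it had 39 in replicate 2 and 0 in replicates 1 and 3. The highest library of all was thus SCI day 14 replicate 2, at 0.549 CPM, in a group whose other libraries had no counts. Every comparison of Ahrr overlapped between groups. At day 7 the log2 fold change against sham was 1.43 ± 1.85 and at day 14 it was 1.14 ± 1.85 (SE; edgeR adjusted p = 0.840 and 0.912), and without SCI day 14 replicate 2 the latter was -5.59, so no direction can be given. Without sham replicate 2, the one sham library with counts, they were 7.02 and 6.72, values fitted against libraries with no counts and so no measure of size.

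Nqo1 (ENSRNOG00000012772, chromosome 19) measured 25.5, 35.7 and 24.1 CPM in sham, 39.5, 41.9 and 60.8 CPM at day 3, 45.1, 59.1 and 38.9 CPM at day 7, and 32.0, 47.2 and 43.6 CPM at day 14. All libraries of days 3 and 7 lay above sham (19.0% and 12.8% of all genes did on these days), and SCI day 14 replicate 1 fell inside the sham range. The mean went from 28.4 ± 6.31 CPM in sham to 47.4 ± 11.7, 47.7 ± 10.3 and 40.9 ± 7.99 CPM at days 3, 7 and 14 (SD, n = 3 each). At day 3 the log2 fold change was 0.74, given without a test. It was 0.75 ± 0.243 at day 7 (SE; edgeR adjusted p = 0.360, unadjusted p = 0.0112) and 0.53 ± 0.242 at day 14 (SE; edgeR adjusted p = 0.682, unadjusted p = 0.0538). From day 3 to day 7 the log2 fold change of Nqo1 was 0.01 ± 0.242 (SE; edgeR adjusted p = 0.986), where Tiparp had -1.04; the difference between the 2 genes was not tested.

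Across the comparisons that the choice did not use, 0 members passed edgeR's test. Cyp1a1 was counted only between days 14 and 7. Of 5 members, 0 passed at day 7 against sham and 0 at day 14 against sham, where 0.016% of all genes passed in each (3 of 18714). The counts were 0 of 5 at day 7 against day 3, 0 of 5 at day 14 against day 3 and 0 of 6 at day 14 against day 7, with 0% of all genes passing in each. At an unadjusted p under 0.05 there were 2, 1, 1, 1 and 1 members in these 5 comparisons, against 9.89%, 7.40%, 14.8%, 17.9% and 3.67% of all genes. DESeq2 also called 0 members in each, while calling 2.61%, 1.10%, 1.15%, 6.40% and 0.254% of the genes it tested; it gave Ahrr no adjusted p at day 14 against day 3. The comparisons with sham share the sham libraries and those with day 3 the day 3 libraries.

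**Figure D2:**
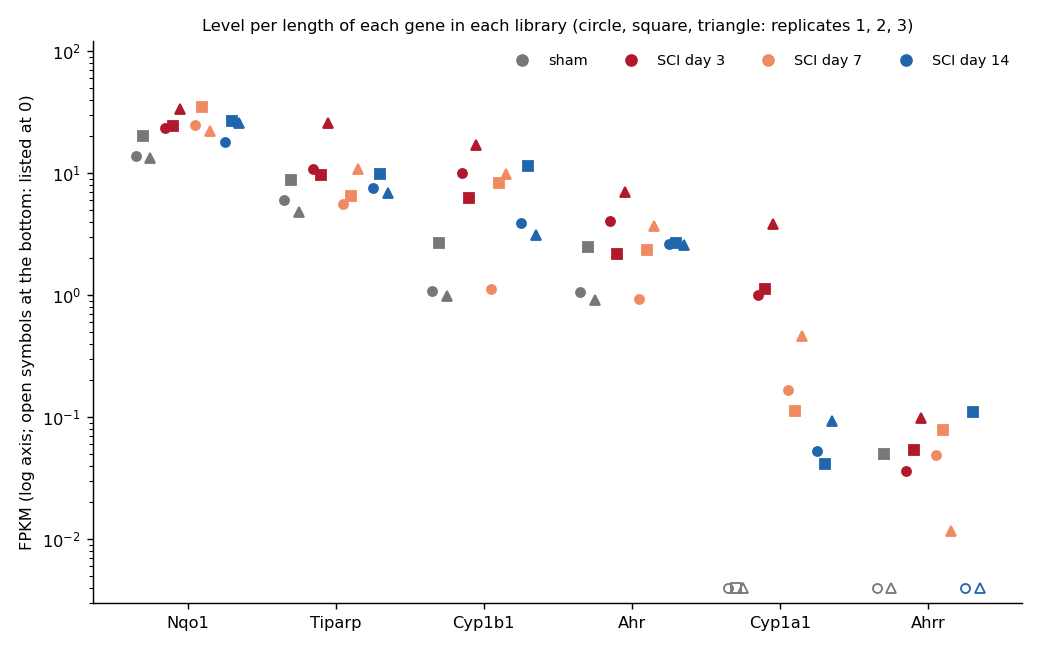
FPKM, the authors' value scaled by gene length and library total, of the 6 genes in each library on a log axis, coloured by group, with open symbols at the bottom for values listed at 0. Nqo1 stands highest and Ahrr lowest among the genes read in sham, and Cyp1a1 spans from 0 in sham to 3.86 at day 3.

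Levels between genes were compared per length, in FPKM. In sham, Nqo1 ran from 13.4 to 20.3 FPKM and Tiparp from 4.84 to 8.75 FPKM, without overlap. Cyp1b1, at 0.991 to 2.69 FPKM, and Ahr, at 0.918 to 2.49 FPKM, came next and overlapped between libraries, with Cyp1b1 the higher of the pair within each of the 3. Ahrr was listed at 0, 0.0495 and 0 FPKM in sham replicates 1, 2 and 3, and Cyp1a1 at 0 in all 3. At day 3 the order of the means was 26.9 ± 5.55 FPKM for Nqo1, 15.4 ± 9.07 for Tiparp, 11.1 ± 5.51 for Cyp1b1, 4.40 ± 2.45 for Ahr, 1.99 ± 1.61 for Cyp1a1 and 0.0628 ± 0.0324 for Ahrr (SD, n = 3 each). This order held within each of the 3 libraries, although the ranges of neighbouring genes down to Cyp1a1 overlapped between libraries. Tiparp was above Cyp1b1 in 2 of 3 libraries at day 7 and 2 of 3 at day 14, and Cyp1a1 was above Ahrr in 3 of 3 and 2 of 3. Even at its highest, 3.86 FPKM in SCI day 3 replicate 3, Cyp1a1 stayed below Cyp1b1 in that library, at 17.1 FPKM.

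Cyp1b1, Ahr and Tiparp shared their extremes within most groups. In sham all 3 were highest in replicate 2 and lowest in replicate 3, at day 3 highest in replicate 3 and lowest in replicate 2, and at day 7 highest in replicate 3 and lowest in replicate 1. At day 14 all 3 were lowest in replicate 3, while Cyp1b1 and Tiparp were highest in replicate 2 and Ahr in replicate 1. This sharing was not particular to the 3 genes. Every member was highest in replicate 3 at day 3, Nqo1 had the same extremes in sham, and Cyp1a1 was also highest in replicate 3 at day 7. Nqo1 went the other way at day 7, where it was highest in replicate 2 and lowest in replicate 3. Likeness was measured as the mean absolute difference in log2 CPM over the 12 libraries after each gene was centred on its own mean. Ahr and Tiparp were closest among members, at 0.350 log2 units, followed by Tiparp and Nqo1 at 0.393 and Ahr and Nqo1 at 0.551. Cyp1a1 differed from each other member by 1.78 to 2.17 log2 units. Since Cyp1a1 has the widest range of the set, part of that distance is its range.

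Fibroblast and meningeal markers shared extremes with Cyp1b1, Ahr and Tiparp in part of the groups. Sham replicate 2, highest in all 3 genes, had 3270 CPM of fibroblast and meningeal markers against 963 and 777 CPM in sham replicates 1 and 3. SCI day 3 replicate 3, also highest in all 3, had the most of these markers of any library, 5950 CPM, and of Schwann cell markers, 8440 CPM. SCI day 7 replicate 1, lowest in all 3 on that day, had the least fibroblast signal of any library, 706 CPM, where replicates 2 and 3 had 2370 and 2250 CPM. Schwann cell markers did not follow Cyp1b1 at day 7, since replicate 2 had 687 CPM of them and 44.5 CPM of Cyp1b1, and replicate 1 had 1470 CPM of them and 6.49 CPM of Cyp1b1. At day 3 Cyp1b1 was lowest in replicate 2, and fibroblast markers were lowest in replicate 1. At day 14 the fibroblast markers were nearly even, at 2760, 2930 and 3090 CPM, and highest in replicate 3, where all 3 genes were lowest. Pericyte and smooth muscle markers (6 of 6 matched) summed to 178 to 250 CPM in sham and 337 to 439 CPM at day 3, without overlap, and to 232 to 294 CPM at days 7 and 14. No marker of the fibroblast, Schwann cell, endothelial or pericyte lists was at 0 throughout a group. The part of these cells in the levels of the 6 genes was not tested.

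**Figure D3:**
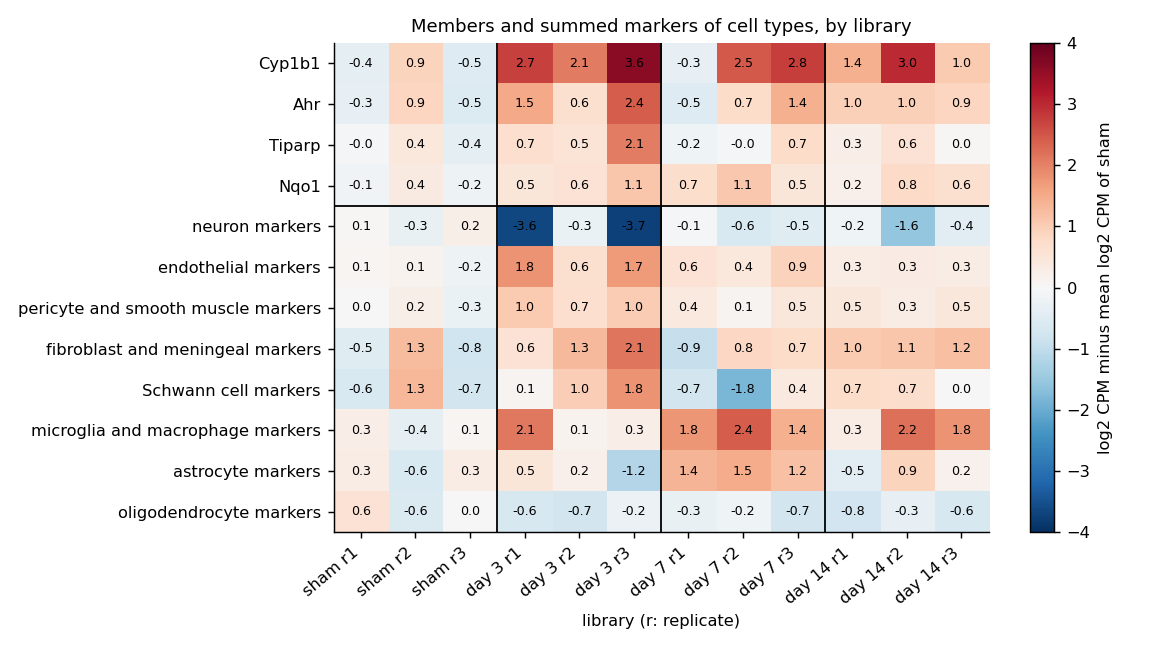
Each cell gives log2 CPM minus the mean log2 CPM of the 3 sham libraries, for 4 members (upper rows) and for summed markers of 8 cell types (lower rows), with 1 column per library. Cyp1b1, Ahr and fibroblast markers are all raised in sham replicate 2 (0.89, 0.86 and 1.28) and lowered in SCI day 7 replicate 1 (-0.32, -0.51 and -0.93), while neuron markers are low in SCI day 3 replicates 1 and 3 (-3.63 and -3.72).

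Among named genes outside the set, those whose pattern was closest to Cyp1b1 were Enpp3, Fosl2 and Atf3, at 0.319, 0.358 and 0.374 log2 units, where the median gene stood at 1.25. Fosl2 is an AP-1 subunit and Atf3 a stress-induced transcription factor. Closest to Ahr were the collagen VI chain Col6a1, the transcription factor Tead1 and Gas7, at 0.184 to 0.185, with a median gene at 0.736. For Tiparp they were Nr1h3, the oxysterol receptor LXR alpha, Npdc1 and Limch1, at 0.124 to 0.142, and for Nqo1 they were Marcks, Rpl24 and Arhgap17, at 0.149 to 0.156. The genes nearest to Cyp1a1 lay farther off. Maff, a small Maf transcription factor, Socs3, a brake on cytokine signalling, and the chemokine Ccl3 stood at 0.914, 0.943 and 0.976, with a median gene at 2.30. With a prior count of 0.5 in place of 2, 1 of the 3 nearest genes of Cyp1a1 stayed among them. For Ahrr, whose nearest genes were Pou2af1, Nfe2 and Rps28 at 0.726 to 0.818, 0 of 3 stayed. The nearest of 18714 genes lie below the median gene by the way they were picked, so that gap supports nothing. The pattern of Cyp1a1 also includes the sham and day 3 values that chose the set.

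Other genes of the pathway were read from 4 lists, which were chosen with earlier results of these data known. At day 3 against sham, 4 of 34 tested genes rose and 1 fell, where 5.50% of all genes rose and 1.20% fell (edgeR adjusted p under 0.05). The median log2 fold change of the 34 was 0.46, against 0.03 for all genes. The 5 calls hung on single libraries: 0 passed without sham replicate 1, sham replicate 3, SCI day 3 replicate 1, SCI day 3 replicate 3, SCI day 7 replicate 2 or SCI day 14 replicate 3, 1 without sham replicate 2, 15 without SCI day 3 replicate 2, and 4 without any 1 of the other 4. In a fit of the day 3 and sham libraries alone, 0 passed. At an unadjusted p under 0.05 there were 12 of the 34, against 35.3% of all genes, and DESeq2 called 12, against 30.0% of the genes it tested. At days 7 and 14 against sham 0 of 34 passed in edgeR, with 3 and 4 at an unadjusted p under 0.05 (9.89% and 7.40% of all genes) and 1 and 0 in DESeq2 (2.61% and 1.10%).

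In the receptor complex, 6 of 6 genes were tested and 1 rose and 1 fell at day 3, where 5.50% of all genes rose and 1.20% fell. Ptges3, the co-chaperone p23 that stabilises the receptor with Hsp90, measured 117, 120 and 114 CPM in sham and 201, 158 and 218 CPM at day 3 (a log2 fold change of 0.72 ± 0.143, SE; edgeR adjusted p = 0.0338). Arnt2, the Arnt relative found mainly in neurons, fell from 109, 95.7 and 130 CPM to 67.4, 68.8 and 34.8 CPM (a log2 fold change of -0.97 ± 0.241, SE; edgeR adjusted p = 0.0439). Neuron markers summed to 142, 1460 and 133 CPM in these 3 day 3 libraries, and to 1420 to 2080 CPM in sham. Their part in the level of Arnt2 was not tested. Arnt itself, the classic partner of the receptor, measured 39.9, 44.2 and 39.0 CPM in sham and 56.6, 45.2 and 69.8 CPM at day 3 (log2 fold change 0.48; edgeR adjusted p = 0.0878).

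Of 12 other receptor targets matched, 10 were tested and 1 rose at day 3, where 5.50% of all genes rose. Hes1, a transcriptional repressor also driven by Notch, measured 3.42, 4.84 and 4.03 CPM in sham and 11.9, 11.8 and 25.1 CPM at day 3 (log2 fold change 1.99 ± 0.365, SE; edgeR adjusted p = 0.0332). It lay above sham in all 9 SCI libraries, as 3.86% of all genes did, with log2 fold changes of 1.14 at day 7 and 1.28 at day 14 (edgeR adjusted p = 0.343 and 0.553). The list's median log2 fold change was 0.89 at day 3, 0.32 at day 7 and 0.79 at day 14, against 0.03, -0.02 and 0.01 for all genes. These medians include genes near the floor: Scin, Serpinb2 and Aldh3a1, with sham means of 0.041, 0.0564 and 0.403 CPM. At day 14 the log2 fold changes of Scin and Serpinb2 were 2.33 ± 2.25 and 1.19 ± 2.29 (SE). Aldh3a1, an aldehyde dehydrogenase of the classic receptor battery, measured 0.454, 0.661 and 0.094 CPM in sham, 0.171, 1.02 and 0 CPM at day 3, 0.110, 0.344 and 0.396 CPM at day 7, and 1.14, 2.31 and 0.522 CPM at day 14. It overlapped sham on each day, and at day 14 the log2 fold change was 1.71 ± 1.27 (SE; edgeR adjusted p = 0.874).

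The NRF2 pathway, which shares Nqo1, gave 2 of 10 genes higher at day 3, where 5.50% of all genes rose. These calls are among those that hung on single libraries. Hmox1, the heme-degrading oxygenase, measured 7.26, 12.5 and 8.94 CPM in sham, 204, 44.2 and 224 CPM at day 3, 41.5, 222 and 169 CPM at day 7 and 13.2, 42.3 and 41.5 CPM at day 14 (at day 3, log2 fold change 4.04 ± 0.781, SE; edgeR adjusted p = 0.0338). Txnrd1, a thioredoxin reductase, measured 85.5, 83.1 and 89.7 CPM in sham and 192, 128 and 222 CPM at day 3 (log2 fold change 1.07 ± 0.204, SE; edgeR adjusted p = 0.0337). Both were lowest in SCI day 3 replicate 2 among the libraries of that day, and both lay above every sham library there, as 19.0% of all genes did. For Nfe2l2 the log2 fold change at day 3 was 0.76 (edgeR adjusted p = 0.0649).

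Enzymes of tryptophan and kynurenine metabolism gave 0 of 9 tested genes at day 3. Of the listed enzymes, Ido1 had no match, and Tdo2 and Kynu were matched but did not pass the filter. The results of the 9 therefore do not cover Ido1, Tdo2 and Kynu. The list holds enzymes that form kynurenine or kynurenic acid, which can bind the receptor, and Kmo, Haao and Qprt, which lead from kynurenine towards NAD. Of the 9, 0 had an unadjusted p under 0.05, against 35.3% of all genes, and DESeq2 called 0, against 30.0%. None of the 9 was over 12.5 CPM in any library. Kyat3, a kynurenine aminotransferase, and Afmid, the formamidase that releases kynurenine, had the most counts and measured 9.23 to 10.6 and 5.62 to 10.6 CPM in sham. At day 3 Kyat3 measured 7.58, 10.1 and 10.7 CPM and Afmid 8.49, 3.56 and 1.34 CPM. The list's median log2 fold change was 0.41 at day 3, 0.53 at day 7 and 0.81 at day 14, against 0.03, -0.02 and 0.01 for all genes. Of the 9, 6 were above 0 at day 3, 8 at day 7 and 9 at day 14, and 0 passed the test on any of these days. The share of all genes above 0 was not counted. Ido2, Haao, Kmo and Il4i1 were near the floor, with sham means of 0.0781, 0.166, 0.411 and 0.494 CPM. At day 14 the SE of Kmo was 1.44.

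**Figure D4:**
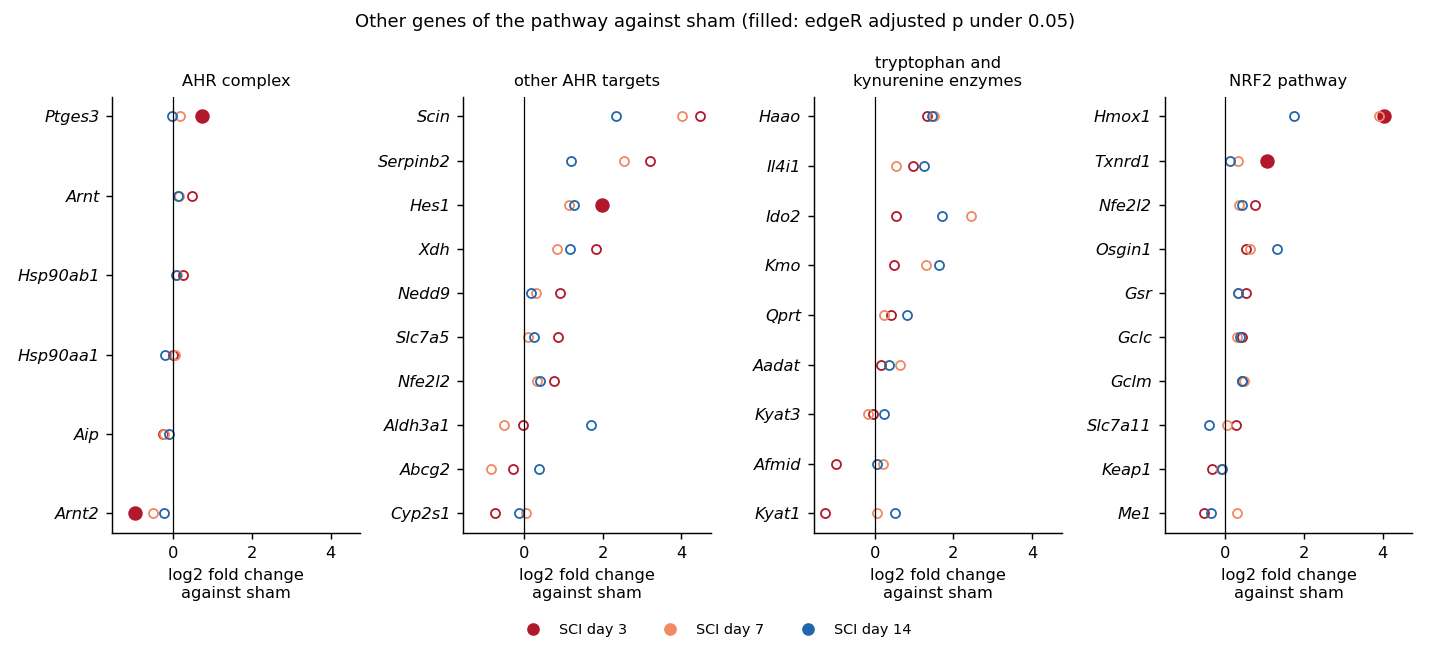
Log2 fold change against sham (horizontal axes) of the tested genes of 4 pathway lists, coloured by day, with filled points for edgeR adjusted p under 0.05. The filled points are all of day 3: Ptges3, Hes1, Hmox1 and Txnrd1 to the right of 0 and Arnt2 to the left.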

How the data were processed

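RNA libraries were made from total RNA with a SMARTer mRNA-Seq kit, per the labels' protocols. The deposited table gives raw read counts per gene, and FPKM values, which the authors scaled by gene length and library total, as named in the file headers. Aligner, counter, strand use and the handling of multiply matching reads were not given in the sources used here. The submitters' processing notes name the mouse builds GRCm38 and mm10, but the gene identifiers are from rat Ensembl, so no coordinates of the table are printed. Promoter windows come from RefSeq, build GRCr8.

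Columns were matched to samples by library name. Genes were filtered with filterByExpr, which left 18714 of 23526, and counts were scaled with TMM. All 12 libraries entered 1 model of group means in edgeR 4.0.16 (R 4.3.3), tested by quasi-likelihood, with Benjamini-Hochberg adjustment over all genes and a limit of 0.05. The common biological coefficient of variation was 0.432. The SE of a log2 fold change is its size divided by the square root of the F statistic. DESeq2 1.42.0 was an alternative. Further alternatives were other scalings, no filter, a replicate block, fitting the compared groups alone, and each library left out. The procedure was tested on simulated data in which 200 of 18363 genes changed at day 7. It made 128 calls, 1 of them false, and found 10%, 64%, 86% and 94% of changes of 2, 4, 8 and 16-fold. The changed genes were drawn only from those with higher mean counts, and each gene varied independently of the others. These rates therefore do not cover genes of few counts, such as Ahrr, or differences shared across a whole library. Libraries were checked for copies, and the most similar pair had a chi-square of 54.5 per gene.

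The members and lists were chosen with earlier results of these data known. Named were the members, list genes that passed (at most 6 per comparison, by smallest p, otherwise the 2 with the most counts), the 3 genes most like each member, and Slc12a5 and Pecam1. An item under this rule is not reported here. Cyp1a2, Arnt, Nfe2l2, Aldh3a1, Scin, Serpinb2, Ido1, Tdo2, Kynu and Scn10a were named after their values were seen. Of the list genes, 2 receptor targets, 1 tryptophan enzyme and 2 NRF2 pathway genes had no match. The lists of astrocyte, oligodendrocyte, microglia, sensory ganglion, erythrocyte, skeletal muscle and neutrophil markers are summarised in the closing section.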

Additional observations from a re-analysis of the deposited data

How the results depend on the processing

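The count of 0 members called held under all 6 other settings and all 12 fits with a library left out, in each of the 5 comparisons tested. The number of all genes called depended on the setting. At day 3 against sham it was 1254, with 733 without a filter, 8 with the replicate block, 1 in a fit of only the groups compared, 5105 in DESeq2, and 1 to 7087 with a library left out. At day 7 against sham it was 3, with 1 under the replicate block, 89 with only the groups compared, 502 in DESeq2, and 1 to 7 with a library left out. At day 14 against sham it was 3, with 1 under the replicate block, 0 with only the groups compared, 206 in DESeq2, and 1 to 3 with a library left out. Between days it was 0 throughout edgeR, except for 1 at day 7 against day 3 under the replicate block, and 0 to 3605 (day 7 against day 3) and 0 to 4342 (day 14 against day 3) with a library left out. DESeq2 called 227 at day 7 against day 3, 1059 at day 14 against day 3 and 50 at day 14 against day 7. The highest of these counts came without SCI day 3 replicate 2, and the cause was not tested. Of the pathway genes at day 3, 5 passed, with 0 under the replicate block, 0 with only the groups compared, 12 in DESeq2, and 0 to 15 with a library left out.

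Under the replicate block, Nqo1 at day 7 against day 3 had a log2 fold change of -0.00243, Cyp1b1 at day 14 against day 7 had 0.07, and Ahrr at day 3 against sham had 4.26 in place of 1.89. Deviations from the group means had a correlation over 0.1 in 6 of 18 same-numbered pairs of libraries (range -0.343 to 0.247). Differently numbered pairs ran from -0.296 to 0.383. Of 12 libraries, 3 correlated best with one of their own number. Whether libraries were paired by number cannot be told from these values, since means of 3 libraries tie the correlations together. With a library left out, these log2 fold changes crossed 0: Tiparp -0.15 to 0.43 and Ahrr -5.59 to 6.72 (day 7 and day 14 against sham), Ahrr -1.02 to 0.07 and Nqo1 -0.17 to 0.23 (day 7 against day 3), Nqo1 -0.33 to 0.01 (day 14 against day 3), and Cyp1b1 -0.91 to 0.42, Ahr -0.19 to 0.69, Ahrr -7.03 to 0.29 and Tiparp -0.10 to 0.42 (day 14 against day 7). Each of these had an adjusted p over the limit in every fit. Without SCI day 14 replicate 2, Cyp1b1 at day 14 against day 3 was -1.67 in place of -0.87. Depth limits Ahrr, which had at most 39 counts in a library.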

Other observations

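Markers of other cells, summed in CPM, moved as follows. Microglia and macrophage markers (5 genes) ran from 122 to 189 in sham, 171 to 678 at day 3, 416 to 834 at day 7 and 194 to 717 at day 14. Astrocyte markers (5 genes) ran from 2490 to 4680 in sham, 1680 to 5280 at day 3, 8470 to 10500 at day 7 and 2760 to 6980 at day 14. Oligodendrocyte markers (5 genes) ran from 31100 to 70500 in sham and from 27800 to 41200 after SCI. Sensory ganglion markers (5 genes) ran from 165 to 207 in sham. At day 3 they stood at 21.3, 311 and 11.7 in replicates 1, 2 and 3, low in the replicates that were also low in neuron markers, and they ran from 150 to 297 at day 7 and 166 to 840 at day 14. Scn10a, 1 of these markers, gave little of the sum in sham, at 0.162 to 0.484. It was not below sham replicate 1 in any day 3 library, at 0.341, 19.6 and 0.7 in replicates 1, 2 and 3. At day 14 it stood at 79.6, 131 and 0.184. Erythrocyte markers (2 genes) ran from 8.80 to 47.8 in sham, 22.3 to 32.1 at day 3, 40.5 to 463 at day 7 and 5.92 to 58.8 at day 14. Skeletal muscle markers (4 genes) were at most 13.3 in every library but SCI day 7 replicate 2, at 143. Neutrophil markers (5 genes) ran from 0.531 to 75.8 in sham, 24.9 to 38.6 at day 3, 11.1 to 15.8 at day 7 and 7.21 to 27.8 at day 14. Their part in the levels of the receptor pathway genes was not tested.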
